A study of Mus musculus with 4 samples.

Results

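The cytosolic ribosomal protein genes encode the proteins that, together with ribosomal RNA, form the large (60S) and small (40S) subunits of the ribosome. Members were all genes named Rpl or Rps with a number, plus Rplp0, Rplp1, Rplp2 and Rpsa, without the Rps6k kinases and the features labelled as pseudogenes. A member also needed at least 100 unique molecular identifiers (UMIs, tags that count single RNA molecules) over the 4 libraries. The names matched 84 of the 31053 features, and 83 passed, 51 of the large and 32 of the small subunit. The gene left out, Rpl10l, had 0 UMIs.

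The libraries were 10x Genomics 3′ single-cell RNA of live CD45+ leukocytes sorted from untreated mouse fibrosarcomas on day 11 after implantation. The tumour cells either carried Cas9 alone (Cas9 control) or lacked both Raldh1 and Raldh3 (Raldh1/3 double knockout, DKO), enzymes that make retinoic acid. Both groups had 2 libraries, for each of which the cells of 2 tumours were pooled. The sorted leukocytes are thus mostly cells of the host, and the edited cells are the tumour cells around them; whether an edited line was 1 clone was not given in the sources used here. Cells were grouped into classes named after their markers and called "-like", and the members were left out of the genes used for clustering.

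Ribosomal protein mRNAs are among the most abundant transcripts of most cells. The proteins are built into ribosomes in fixed proportions, and the levels of most of the mRNAs tend to go up and down together. Many of them start with a run of pyrimidines, the 5′ terminal oligopyrimidine (TOP) tract, through which mTOR and the RNA-binding protein Larp1 control their translation and stability. T cells that leave the resting state build up ribosomes before they divide, while mature neutrophils are known for low RNA content.

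The start sites of some members are shown because the tract at the start is the sequence feature that this family is known for. Each line gives 30 bases around an annotated start from RefSeq (GRCm38.p6), 20 before the start and 10 from it, 5′ to 3′ on the gene's strand. Capitals mark the unbroken run of C and T that covers the start, as far as it lies inside the window.
Rpl35, chr2:39005122-39005151, minus strand: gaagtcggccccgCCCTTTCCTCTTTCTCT
Rps18, chr17:33955656-33955685, minus strand: acttatacgtcacttccgCTCTCTCTTCCa
Rps15a, chr7:118116138-118116167, minus strand: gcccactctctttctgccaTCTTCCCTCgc
Rps27, chr3:90213639-90213668, minus strand: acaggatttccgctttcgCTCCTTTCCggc
Rps9, chr7:3704021-3704050, plus strand: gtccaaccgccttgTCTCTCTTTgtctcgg
Rps28, chr17:33824553-33824582, minus strand: tcctgggtaccgcgtgcggTCTCgcgagag
Rps27l, chr9:66946066-66946095, plus strand: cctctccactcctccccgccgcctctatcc
Rpl10, chrX:74270796-74270825, plus strand: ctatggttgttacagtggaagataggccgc

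Of the 83 members, 63 had a start in the RefSeq table. A run of at least 5 pyrimidines covered a start in 31.7% of these members and in 11.8% of all 27025 genes of the table. A run of at least 8 did so in 27.0% of members and 4.59% of all genes. The letters CTTTC, which can lie inside such a run, were found on the gene's strand of the 30-base window in 23.8% of members and 4.95% of all genes. On the opposite strand they were found in 4.76% and 4.06%. An annotated start can lie a few bases from the start used by the cell, so a window without a run, such as that of Rpl10, is only a statement about these letters.

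Depth was between 57458026 and 80032966 UMIs per library over 5429 to 9206 barcodes, and 4647 to 7638 cells per library were kept. In all, 86 barcodes occurred in more than 1 library among the 25880 kept cells (194 cells), and without them the part of all UMIs that came from the family was 16.6% and 17.1% in control and 16.9% and 15.1% in DKO. Transcripts of the targeted genes said little about the labels, as the sort removed most tumour cells: Aldh1a1 (Raldh1) had 0 or 1 UMI per library, and Aldh1a3 (Raldh3) had 28 and 9 in the controls against 10 and 24 in the DKO libraries. In 183 tumour or fibroblast-like cells Aldh1a3 had 9 and 3 UMIs in the controls against 0 and 0, too few to check a label. Ptprc, which encodes CD45 and defines the sort, was at 673 to 936 CPM (counts scaled to 1000000 UMIs) over all cells and at 7.27 to 75.9 CPM in those 183 cells.

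To describe how much of each cell's RNA went to the family, the summed UMIs of the 83 members were divided by all UMIs of a class. T-like cells gave 24.9% and 25.2% of their UMIs to ribosomal proteins in control and 22.5% and 20.8% in DKO. NK-like cells gave 24.9% and 27.3% in the controls against 25.1% and 21.7% in DKO. Dendritic-like cells were at 17.7% and 18.2% in the controls against 17.0% and 14.4% in DKO, and monocyte/macrophage-like cells at 14.7% and 15.7% in the controls against 14.8% and 13.0% in DKO. Neutrophil-like cells were far below the rest, at 3.41% and 3.05% in the controls against 3.11% and 2.95% in DKO. No library of neutrophil-like cells reached the level of any library of another class. T-like and NK-like cells overlapped with each other, neither overlapped with the dendritic-like or monocyte/macrophage-like cells, and these last 2 overlapped with each other.

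The smaller classes filled in this order. B-like cells (86 cells) were at 23.7% and 22.2% in the controls against 22.6% and 23.1% in DKO. Plasmacytoid dendritic-like cells (92 cells) were at 17.1% and 16.9% in the controls against 15.4% and 13.1% in DKO. The tumour or fibroblast-like cells were at 25.2% and 24.4% in the controls against 27.4% and 24.6% in DKO, the single named class in which the DKO mean was the higher one. The widest 95% Clopper-Pearson interval of a library was ± 0.264 percentage points (B-like cells), wider than the difference of -0.117 points between the groups' means in that class. Such intervals cover counting error only.

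**Figure D1:**
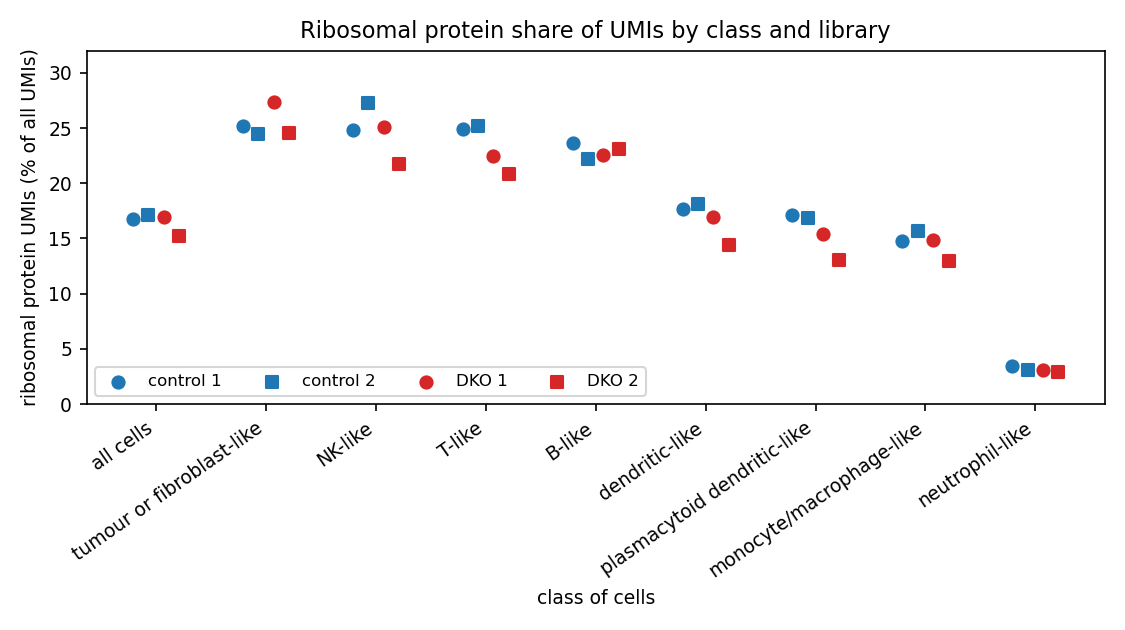
Share of UMIs that came from the 83 cytosolic ribosomal protein genes (percent, vertical axis) in each class of cells, with 1 point per library (blue, Cas9 control; red, DKO; circles, the first library of a group; squares, the second). T-like, NK-like, B-like and tumour or fibroblast-like cells lie between 20.8% and 27.4%, neutrophil-like cells between 2.95% and 3.41%.

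Within a class the share also depended on cell state. Of the 26 clusters, cluster 6, T-like cells led by Satb1, Cd8b1 and Ms4a4b, had the highest mean share over the 4 libraries: 33.7% and 32.4% in the controls against 29.6% and 27.7% in DKO. Cluster 12, T-like cells led by Ikzf2, Ctla4 and Foxp3, had 16.0% and 16.6% in the controls against 13.9% and 12.6% in DKO, the lowest among the T-like clusters. Cycling T-like cells (cluster 16, with Mki67 and Top2a) were at 23.6% and 23.6% in the controls against 22.4% and 20.9% in DKO. Cluster 15, NK-like cells led by the granzyme genes Gzmc, Gzmd and Gzmf, was at 29.2% and 28.9% in the controls against 29.9% and 28.6% in DKO, where the groups overlapped. It lay above cluster 6 in both DKO libraries, but held only 15 and 59 cells in the controls and 31 and 15 in DKO. Among monocyte/macrophage-like clusters the mean over the 4 libraries lay between 11.7% (cluster 10, with Il1b, Gbp2 and Cxcl9) and 16.4% (cluster 4, with Tgfbi, Ccr2 and H2-Ab1).

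To assess the family in DKO tumours, the share was compared between groups within each class. In T-like cells it was 25.04 ± 0.190% in control and 21.7 ± 1.16% in DKO (mean ± SD, n = 2 libraries), a difference of -3.38 percentage points, and both DKO libraries lay below both controls. In dendritic-like cells the difference was -2.23 points, also without overlap. Plasmacytoid dendritic-like cells had -2.72 points without overlap (-1.56 without DKO 2). NK-like cells (-2.65 points), monocyte/macrophage-like cells (-1.31) and neutrophil-like cells (-0.204) had overlapping libraries. With 2 libraries per group the smallest p that an exact permutation test of these shares can give was 0.333, so they are given as values.

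DKO 2 was the lowest library in each of these classes, and in 23 of the 26 clusters. Without DKO 2 the difference was -2.56 points in T-like cells, -0.94 in dendritic-like, -0.947 in NK-like and -0.359 in monocyte/macrophage-like cells, and over all cells it was 0.0124 instead of -0.839. Both DKO libraries lay below both controls in 15 of 26 clusters, among them 6 of 7 T-like clusters, and in 0 clusters above. The clusters share the same 4 libraries, so they are not independent comparisons. At one fixed mix of clusters the difference was -2.71 points in T-like cells and -1.40 in monocyte/macrophage-like cells (a setting chosen after seeing the data). Over all cells the fixed mix of classes gave -1.67 points, against -0.839 at the libraries' own mix, in which T-like cells were 1884 of 6178 and 1365 of 4647 cells in DKO and 1550 of 7638 and 1138 of 7417 in control.

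The share is a ratio, and its 2 parts behaved differently. In T-like cells the median number of ribosomal protein UMIs per cell was 1151 and 1166.5 in the controls against 1100.5 and 1217 in DKO, with overlapping libraries. The median number of all other UMIs per cell was 3627 and 3620.5 in the controls against 4028.5 and 4922 in DKO, without overlap. In monocyte/macrophage-like cells the medians were 1200 and 1296 ribosomal protein UMIs in control against 1388 and 1324 in DKO, and 7408 and 7275 other UMIs in control against 8826 and 9970 in DKO. NK-like cells had 924 and 980.5 ribosomal protein UMIs in control and 985.5 and 1056 in DKO, beside 3142 and 3279 other UMIs in control and 3617.5 and 4569 in DKO. In these 3 classes both DKO libraries thus had more UMIs of other genes per cell than both controls, while the UMIs of the family overlapped in T-like cells and were higher in DKO in the other two. RNA content per cell and sequencing depth per cell cannot be told apart here.

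To relate the share to depth, cells of a class were sorted into bins of total UMIs. In T-like, NK-like and dendritic-like cells the deeper bins mostly had the higher shares. T-like cells of control 1 were at 15.2% from 1000 to 2000 UMIs, at 21.3% from 2000 to 4000, at 25.7% from 4000 to 8000 and at 25.8% from 8000 to 16000. In DKO 2 the same bins held 11.3%, 16.3%, 20.02% and 21.7%. NK-like cells of control 2 were at 20.2% from 2000 to 4000 UMIs and at 31.3% from 8000 to 16000. Monocyte/macrophage-like cells were lowest in the bin of 2000 to 4000 UMIs in each library (9.05% to 11.97%) and highest above 16000 (13.8% to 16.9%). Spearman's rho between a cell's share and its total UMIs was 0.302 to 0.382 in the 4 libraries of T-like cells, 0.579 to 0.711 in NK-like, 0.389 to 0.489 in dendritic-like and 0.262 to 0.448 in monocyte/macrophage-like cells. In neutrophil-like cells it was -0.138 to 0.0382. These are descriptions across cells of 1 library, and both measures contain the ribosomal protein UMIs.

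Among T-like cells those of DKO were deeper (medians of 4837.5 and 4808.5 UMIs in control, 5143 and 6246 in DKO) and had the lower share. Within a library the deeper cells mostly had the higher share. The part of depth in the difference between groups was not tested. Among bins with at least 20 cells in each library, both DKO libraries lay below both controls in 4 of 5 bins of T-like cells, 4 of 6 of monocyte/macrophage-like, 2 of 3 of NK-like and 3 of 3 of dendritic-like cells, and in 2 of 6 bins over all cells. Neutrophil-like cells were lower in both DKO libraries from 1000 to 2000 UMIs and higher in both from 2000 to 4000 (2.92% and 2.63% for controls, 3.27% and 3.07% for DKO). In T-like cells of 4000 to 8000 UMIs (550 to 958 cells per library) the share was 25.7% and 25.5% in the controls against 22.2% and 20.02% in DKO. In monocyte/macrophage-like cells of that depth it was 13.1% and 13.7% in the controls against 11.98% and 9.85% in DKO. Averaged over bins the difference was -3.51 points in T-like cells, -1.70 in monocyte/macrophage-like, -3.79 in NK-like and -2.92 in dendritic-like cells. The bins of a class come from the same libraries and are not independent comparisons.

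**Figure D2:**
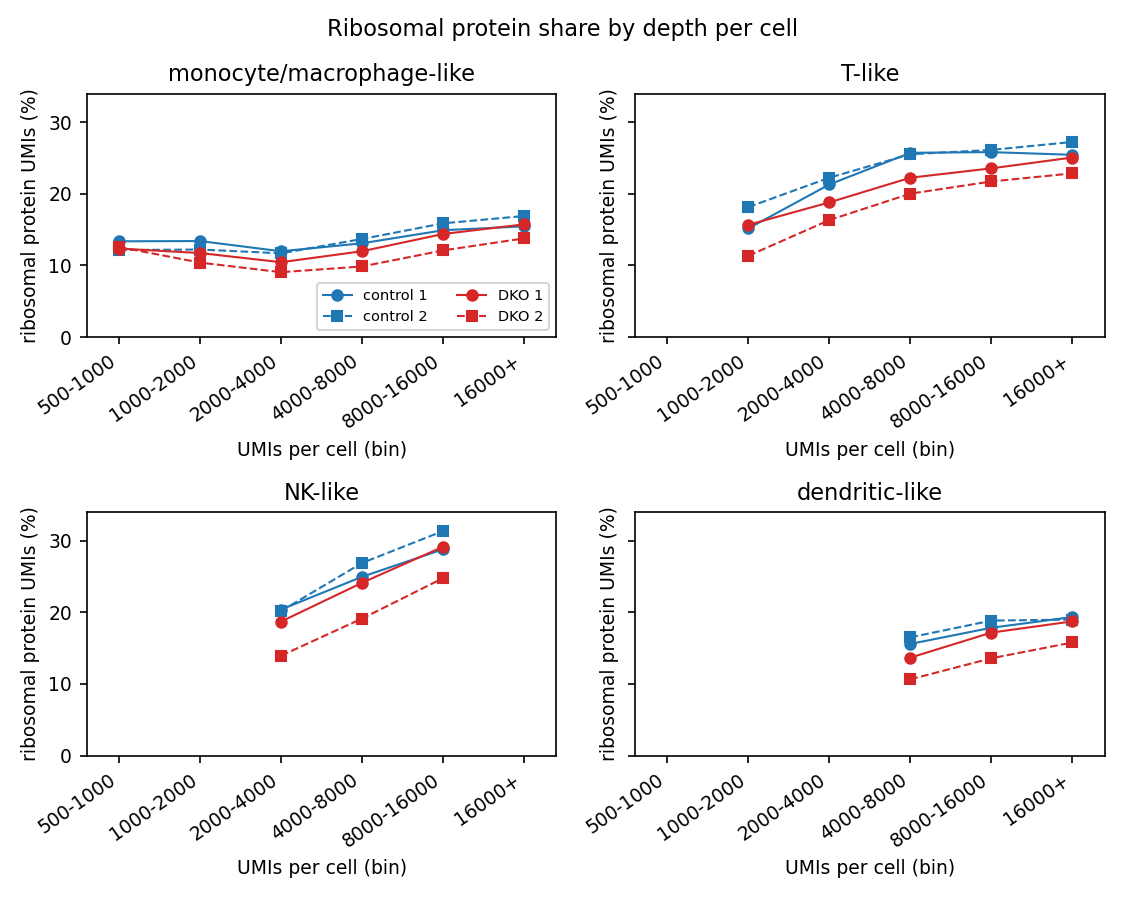
Share of UMIs from ribosomal protein genes (percent) against total UMIs per cell in bins that double in width (horizontal axis), 1 line per library, for 4 classes. The share mostly climbs with depth in T-like, NK-like and dendritic-like cells and from 2000 UMIs on in monocyte/macrophage-like cells. DKO 2 is the lowest line from 1000 UMIs on. Bins with fewer than 20 cells in a library are left out.

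Other measures of the libraries moved with DKO 2 as well. Gm42418, a transcript that overlaps ribosomal RNA and tracks its carry-over, was at 25307 and 16748 CPM in the controls against 24178 and 31005 in DKO in T-like cells, and at 41654 and 24268 CPM for controls and 37684 and 51706 CPM for DKO in monocyte/macrophage-like cells. The 13 genes of dissociation stress summed to 5103 and 4635 CPM in the controls against 5023 and 6570 in DKO in T-like cells, with 0 of the 13 at 0 UMIs. For both measures the libraries of the 2 groups overlapped in T-like cells and DKO 2 was the highest. Dissociation stress was higher in both DKO libraries of dendritic-like cells (5242 and 5146 CPM for controls, 5617 and 7806 for DKO), plasmacytoid dendritic-like cells (4511 and 4110 for controls, 5011 and 6779 for DKO) and neutrophil-like cells (21833 and 19741 for controls, 24859 and 22725 for DKO). The 8 genes of naive and central memory T cells were at 1600 and 1346 CPM in the controls against 1460 and 1909 in DKO in T-like cells. Of the marker lists of other cells, 3 were higher in both DKO libraries of T-like cells: innate lymphoid (9 genes, 897 and 901 CPM in the controls against 1036 and 1484 in DKO), dendritic (15 genes, 104 and 83.6 in the controls against 109 and 129 in DKO), and mast or basophil (11 genes, 1 at 0, 58.4 and 29.0 in the controls against 67.4 and 111 in DKO). Those of monocytes and macrophages (23 genes, 1756 to 2431 CPM), NK cells (12 genes, 2635 to 3764), plasmacytoid dendritic cells, neutrophils, B cells and tumour cells or fibroblasts overlapped between groups in T-like cells. The part of these measures in the lower share was not tested.

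To ask which members differed, the counts of each class were summed per library and fitted with edgeR. The quasi-likelihood test with Benjamini-Hochberg adjustment over all genes of a class called 0 members in each of the 6 sets of cells tested. It called few genes at all: 0.00882% of 11335 genes in T-like cells, 0.00767% of 13035 in monocyte/macrophage-like, 0.0437% of 9147 in NK-like, 0% of 9784 in dendritic-like, 0.114% of 3503 in neutrophil-like cells and 0% of 14412 over all cells. The smallest adjusted p of a member was 0.207 in T-like, 0.403 in monocyte/macrophage-like, 0.493 in NK-like, 0.636 in dendritic-like, 0.107 in neutrophil-like cells and 0.319 over all cells. DESeq2 called 7 members in T-like cells (0.318% of all genes), each lower in DKO, and 0 in the other sets. Members could still be counted by unadjusted p and by direction beside all genes of a class.

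In T-like cells 33 of the 82 members tested were lower at an unadjusted p below 0.05 (background 7.34% of all genes), and 0 were higher (background 7.42%). This count was 2 without control 2 (2.31% of all genes), 6 without control 1 (7.31%), 18 without DKO 2 (6.22%), 57 without DKO 1 (10.1%) and 7 with the replicate block. With the replicate block 4.98% of all genes were lower at that threshold. Both DKO libraries lay below both controls for 65 of 82 members (background 16.7%), and above them for 1, Rpl23a (background 32.4%). Log2 changes, DKO over control, were below 0 for 79 of 82 members (background 49.4%) with a median of -0.28, against 0.00 over all genes. The median was -0.19 without DKO 2 and -0.39 without DKO 1, where 25 members and 578 of all 11559 genes were called. Large subunit members (median -0.28, 48 of 50 negative) and small subunit members (median -0.27, 31 of 32 negative) had about the same counts.

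The other classes had fewer members past the unadjusted threshold. Each background is over all genes of a class, and other genes of short coding length are given further below. For monocyte/macrophage-like cells 1 of 83, Rpl39l, was lower (background 4.3%) and 0 higher (background 4.21%), with 27 of 83 below both controls (background 18.7%), 76 of 83 negative (background 49%) and a median of -0.17. In NK-like cells 3 of 81, Rpl35, Rpl10 and Rpl15, were lower (background 4.89%) and 0 higher (background 4.41%), 28 lay below both controls (background 14.7%) and 78 were negative (background 50.1%), with a median of -0.23. In dendritic-like cells 1 of 81, Rpl35, was lower (background 3.25%) and 0 higher (background 3.95%), 52 lay below both controls (background 14.5%) and 78 were negative (background 49.3%), with a median of -0.26; without DKO 1, 48 members and 691 of all 10390 genes (6.65%) were called. In neutrophil-like cells 8 of 79 were lower (background 5.11%) and 1, Rpl14, was higher (background 4.25%), 16 lay below both controls (background 11.5%) and 16 above (background 29.9%), 61 were negative (background 48.4%), and the median was -0.22. Over all cells 1 of 83, Rpl39l, was lower (background 5.27%) and 0 higher (background 7.6%), 20 lay below both controls (background 17%), 75 were negative (background 48.7%), and the median of -0.15 was -0.02 without DKO 2. Without DKO 2 the median was -0.03 in monocyte/macrophage-like, -0.07 in NK-like and -0.08 in dendritic-like cells.

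**Figure D3:**
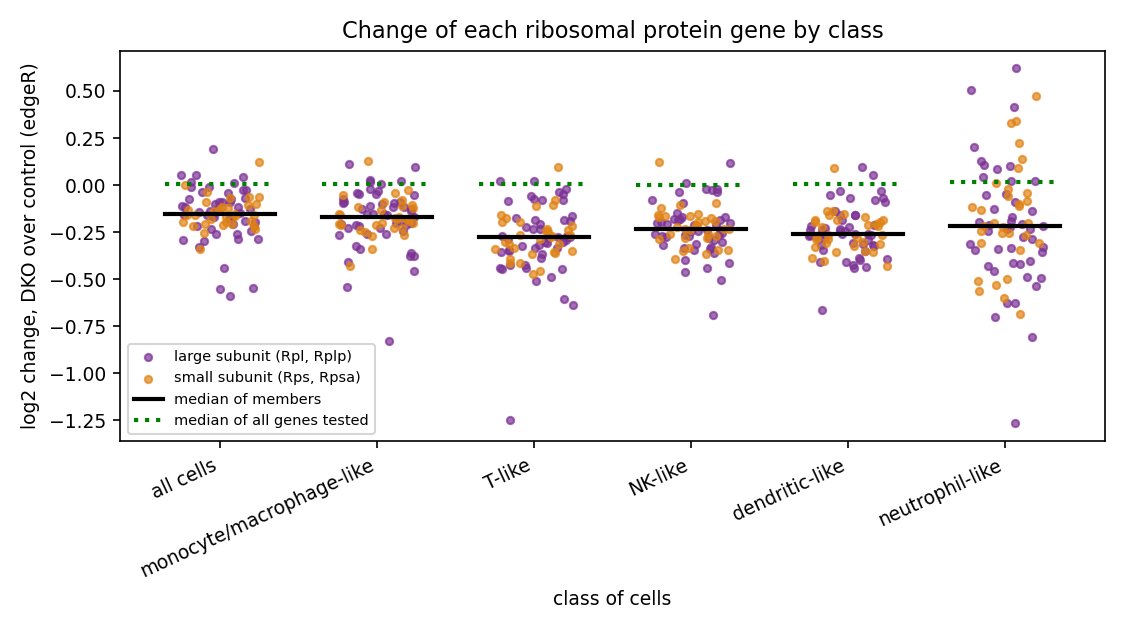
Log2 change of each member, DKO over control, in the tested classes, with 1 point per member (purple, large subunit; orange, small subunit), a black line at the members' median and a dotted green line at the median of all genes tested. Most points lie below 0, with medians from -0.15 over all cells to -0.28 in T-like cells, and 0 points passed the adjusted threshold.

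Among single members the same names stood at the low end in several classes. Rpl35, a large subunit protein near the exit of the peptide tunnel (GRCm38 chr2:39001580-39005624), was at 910.0 and 1356 CPM in the controls against 769.5 and 763.0 in DKO T-like cells (log2 -0.64 ± 0.19 SE, adjusted p = 0.225 with edgeR). The 2 controls differed more from each other than control 1 did from DKO, and the groups did not overlap. Monocyte/macrophage-like cells had Rpl35 at 679 and 1035 CPM in the controls against 650 and 561 in DKO (log2 -0.54). In NK-like cells it was at 880 and 1581 CPM in the controls against 878 and 753 in DKO, so control 1 lay close to DKO 1. Its log2 change there was -0.69, and -1.09 without control 1, where control 2 alone stood for the controls. Without control 2 the lowest member of NK-like cells was at -0.30, so Rpl35 was not below that value. In dendritic-like cells the log2 change of Rpl35 was -0.66, and without control 2 the lowest member there was at -0.46.

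Rpl10 (GRCm38 chrX:74270812-74273135), which completes the large subunit at a late step of its assembly, was at 1232 and 1429 CPM in the controls against 1004 and 830 in DKO T-like cells (log2 -0.61 ± 0.16 SE, adjusted p = 0.207 with edgeR). The groups did not overlap. Its values did overlap in monocyte/macrophage-like cells, with 873 and 1128 CPM in the controls against 884 and 611 in DKO (log2 -0.45). In neutrophil-like cells it was at 277 and 289 CPM in the controls against 135 and 130 in DKO (log2 -1.27, adjusted p = 0.107 with edgeR), the largest change of a member in that class. NK-like cells had log2 -0.51.

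Rpl32, Rpl11, Rps18 and Rps15a completed the 6 lowest members of T-like cells. Rpl11, which with Rpl5 and the 5S RNA forms the particle that binds Mdm2 and so stabilises p53, was at 2475 and 2637 CPM in the controls against 2080 and 1736 in DKO (log2 -0.49). Its partner Rpl5 was at 2240 and 2088 CPM in the controls against 2266 and 2211 in DKO (log2 -0.02), with overlapping groups. Rpl32 was at log2 -0.51, Rps18 at -0.47 and Rps15a at -0.46. The highest members in T-like cells were Rps28 (0.10), Rpl23a (0.02), Rpl27 (0.02), Rpl5, Rpl31 (-0.05) and Rpl36al (-0.06). For Rps28 the values were 2564 and 2149 CPM in the controls against 2354 and 2948 in DKO, which overlapped.

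Rps28 and Rpl27 also stood among the highest in monocyte/macrophage-like cells (log2 0.13 and 0.11) and in NK-like cells (0.12 and 0.12). Among monocyte/macrophage-like cells the other high members were Rpl22l1 (0.10), Rpl38 (0.03), Rplp1 (0.02) and Rpl36al (0.02), and the other low ones Rps27 (-0.43), Rpl34 (-0.38), Rpl9 (-0.37) and Rpl18 (-0.36). In NK-like cells Rpl36al (0.01), Rpl31 (-0.02), Rpl4 (-0.02) and Rplp2 (-0.03) stood high, and Rpl15 (-0.46), Rpl32 (-0.44), Rpl28 (-0.41) and Rpl13 (-0.40) low.

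By role, the stalk proteins that recruit translation factors were at log2 -0.32 (Rplp0), -0.22 (Rplp1) and -0.08 (Rplp2) in T-like cells. Rplp0 was at 3638 and 3783 CPM in the controls against 3237 and 3003 in DKO, without overlap, and Rplp2 at 3700 and 3617 in the controls against 3652 and 3626 in DKO, with overlap. Rpsa, which is also known as the laminin receptor, was at log2 -0.08. Rps6, the target of S6 kinase, was at -0.17, and Rps3, which lines the mRNA entry channel, at -0.41 (3090 and 3174 CPM in control, 2615 and 2323 in DKO). Rps19, mutated in Diamond-Blackfan anaemia, was at -0.28 and Rpl3, at the peptidyl transferase centre, at -0.23. Rpl13a, linked to silencing of inflammatory transcripts, was at -0.16. Among the smallest proteins, Rpl41 was at -0.07, Rpl38 at -0.08, Rps29 at -0.28, Rpl39 at -0.35 and Rps27 at -0.35.

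To test whether T-like cells differed from monocyte/macrophage-like cells in their change, the class-by-group term was fitted in edgeR. It called 0 members, against 0.689% of 13357 genes, and the smallest adjusted p of a member was 0.310. The change was more negative in T-like cells for 75 of 83 members, with a median difference of -0.09 against -0.004 over all genes. The share of all genes with a more negative change was not counted. At an unadjusted p below 0.05 the difference was lower for 3 members (background 4.9%), Rpl32, Rpl22l1 and Rplp1, and higher for 0. With total UMIs alone 69 of 83 members were more negative, with a median difference of -0.06 against 0.03 over all genes. A difference between the classes was thus not shown for any member at the adjusted threshold.

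Members were also compared among classes, as a percentage of the summed members so that the overall share drops out. Of the 82 members with at least 20 CPM in some class, the median ratio of the highest to the lowest of 8 classes was 1.57, and 27 members exceeded 2. Rps27l (5.77), Rpl7l1 (5.29), Rpl31 (4.88), Rps27 (4.48) and Rps9 (4.38) varied most, followed by Rps18, Rpl36al, Rpl12, Rpl10a, Rps2, Rpl3 and Rps29. The ratio of Rpl7l1 rests on 4, 9, 6 and 11 UMIs per library of neutrophil-like cells and was 3.104 without DKO 2. The neutrophil-like cells stood at an end for many of these. Rps27 made up 3.82% and 4.72% of their ribosomal protein UMIs in the control libraries and 3.53% and 3.37% in the DKO ones. It made up 0.836% and 1.03% in control and 0.726% and 0.849% in DKO monocyte/macrophage-like cells. Rps9, which is placed early on the small subunit, made up 4.84% to 6.54% in neutrophil-like, 1.45% to 1.64% in NK-like and 1.24% to 1.37% in tumour or fibroblast-like cells. Rpl3 had 0.286% to 0.441% in neutrophil-like cells and 0.784% to 1.09% in monocyte/macrophage-like, T-like, NK-like and dendritic-like cells. The neutrophil-like values rest on 1805 (Rps27), 2500 (Rps9) and 149 (Rpl3) UMIs.

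Rpl31 was set apart by plasmacytoid dendritic-like cells, where it made up 1.504% and 1.31% of the family in control and 1.76% and 1.85% in DKO. In the other classes it was at 0.300% to 0.569%, so these ranges did not overlap. That class held 15 to 34 cells per library and 2076 UMIs of Rpl31 in all.

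Across the 26 clusters most members went up and down together. The correlation of a member's log2 level with that of the other members summed had a median Pearson's r of 0.965, and 71 of 83 members exceeded 0.9. Rps23 (0.991) and Rps7 (0.990) were among those nearest to the rest. The 4 members below 0.5 were Rpl3l (-0.67), Rpl39l (-0.00), Rps27l (-0.00) and Rpl7l1 (0.29), each a paralogue of another member, and Rps27 (0.63) came next. These values are over 26 clusters that share the 4 libraries, and the level of every member includes the total of its cluster.

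The paralogues were then set against their partners, as the percentage of the pair that came from the second gene. Rps27l, a p53 target that differs from Rps27 by few residues, gave 23.6% and 19.8% of the pair in control and 25.6% and 21.7% in DKO monocyte/macrophage-like cells. It gave 27.0% and 23.9% in control and 25.02% and 24.55% in DKO dendritic-like cells. In T-like cells it gave 4.69% and 5.29% in the controls against 5.67% and 4.32% in DKO, and in NK-like cells 4.50% and 5.05% in the controls against 5.10% and 4.17% in DKO. T-like and NK-like cells did not overlap with these myeloid classes, and within each of the 4 classes the tumour groups did overlap. Neutrophil-like cells were at 8.02% and 5.02% in the controls against 12.7% and 10.7% in DKO, without overlap, from 21 to 52 UMIs of Rps27l per library. The counting interval of control 1 there (5.48% to 11.3%) overlapped those of DKO 1 (9.62% to 16.3%) and DKO 2 (6.72% to 15.8%).

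Within classes the Rps27l percentage followed cell state. Among dendritic-like cells it was 41.8% and 34.4% in the controls against 37.0% and 43.1% in DKO for cluster 20 (Ccr7, Fscn1 and Ccl22, genes of mature dendritic cells), and 16.8% to 19.4% for cluster 5 (MHC class II genes). Among monocyte/macrophage-like cells it was 9.32% to 11.9% in cluster 13 (Plac8, Chil3 and Ifitm6, genes of recruited monocytes) and 27.7% to 32.8% in cluster 14 (Mki67, Top2a and C1qa). Among T-like cells it was lowest in cluster 6 (1.79% to 2.71%) and highest in cycling cluster 16 (8.84% to 11.7%) and in cluster 25 (5.86% to 12.6%, with Gata3 and Il13). Cluster 25 scored higher on the innate lymphoid markers than on those of T cells and was counted as T-like because 92.0% of its cells had Cd3e. These clusters were formed without members of the family.

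**Figure D4:**
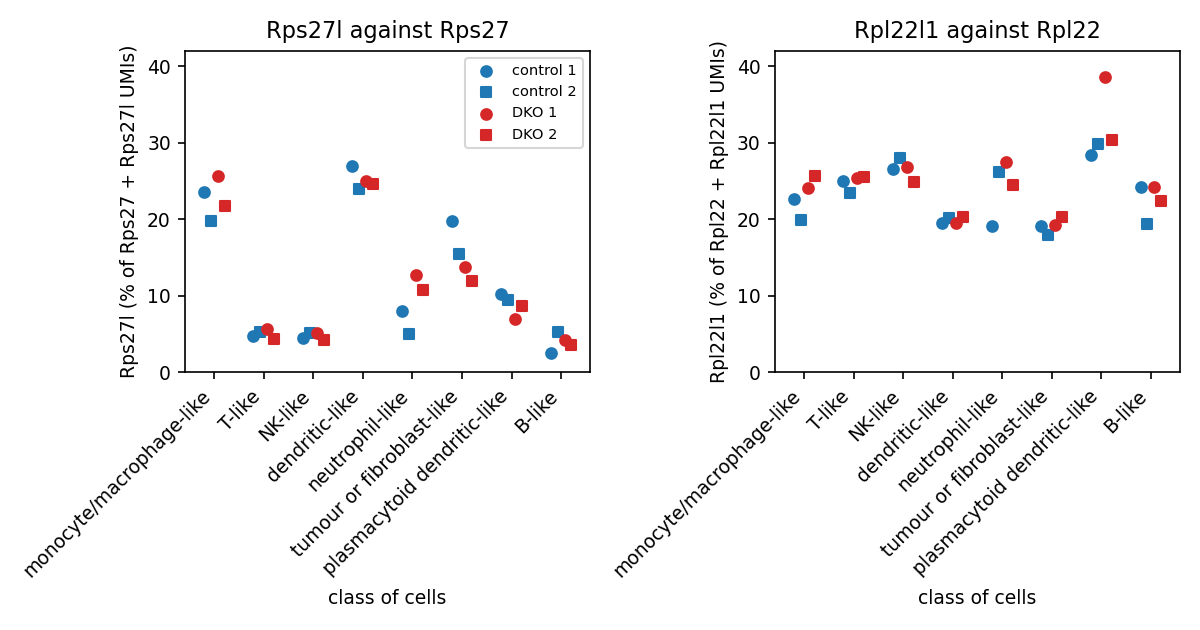
Percentage of the UMIs of the pairs Rps27 and Rps27l (left) and Rpl22 and Rpl22l1 (right) that came from the second gene (vertical axis), per class, with 1 point per library (blue, Cas9 control; red, DKO). Rps27l is at 4.17% to 5.67% in T-like and NK-like cells and at 19.8% to 27.0% in monocyte/macrophage-like and dendritic-like cells.

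Rpl22l1, the paralogue of Rpl22 that Rpl22 itself represses in T cells, gave 22.7% and 19.9% of its pair in control and 24.0% and 25.7% in DKO monocyte/macrophage-like cells. In T-like cells it gave 25.025% and 23.5% in the controls against 25.4% and 25.5% in DKO. The group means differed by 3.55 and 1.19 points without overlap of libraries, and by 2.14 and 0.407 without control 2. In T-like cells the counting intervals of control 1 (24.4% to 25.6%) and DKO 1 (24.9% to 25.9%) overlapped. The libraries of the groups overlapped in NK-like (24.9% to 27.9%) and dendritic-like cells (19.5% to 20.3%). By cluster, both DKO libraries lay above both controls in monocyte/macrophage-like clusters 1, 2, 3, 4 and 14. The groups overlapped in monocyte/macrophage-like clusters 0, 9, 10, 11 and 13. Among T-like clusters both DKO libraries lay above both controls in clusters 12 and 17, and the groups overlapped in clusters 6, 7, 8, 16 and 25. Rpl36al gave 26.1% and 23.03% of its pair with Rpl36a in control and 26.7% and 28.5% in DKO monocyte/macrophage-like cells, and 20.5% and 19.0% in the controls against 22.3% and 23.03% in DKO T-like cells. Dendritic-like cells were at 29.96% and 24.5% in the controls against 30.5% and 34.5% in DKO, so both DKO libraries lay above both controls in these 3 classes, and NK-like cells overlapped (16.7% to 22.2%). The difference was 3.06 points in monocyte/macrophage-like and 5.29 in dendritic-like cells, and 1.53 and 2.55 without control 2; the counting intervals of control 1 and DKO 1 overlapped in both. Rpl7l1 gave 4.22% to 4.93% of its pair with Rpl7 in monocyte/macrophage-like cells, 1.82% to 2.17% in T-like and 5.62% to 6.47% in tumour or fibroblast-like cells.

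The rare paralogues differed in level between classes. Rpl39l, known from male germ cells and tumours, gave 3.96% and 4.00% of its pair with Rpl39 in control and 3.24% and 3.81% in DKO tumour or fibroblast-like cells, from 771 UMIs. Monocyte/macrophage-like cells had 0.228% and 0.163% in the controls against 0.102% and 0.139% in DKO, and in T-like cells at most 0.0697%. Its log2 change was -0.83 in monocyte/macrophage-like cells (adjusted p = 0.403 with edgeR) and -1.25 in T-like cells, from 92 to 245 and 7 to 25 UMIs per library. Tumour or fibroblast-like cells numbered 61 and 63 in the controls against 31 and 28 in DKO, and the part of free RNA from such cells in these values was not tested. Rpl3l, a gene of skeletal and heart muscle, had 320 UMIs in monocyte/macrophage-like, 37 in dendritic-like and 16 in neutrophil-like cells. Plasmacytoid dendritic-like cells had 3 (3.585 CPM) and tumour or fibroblast-like cells 1. In T-like cells it had 0 of 36819984 UMIs, which allows up to 0.0815 CPM, against 1.78 CPM in monocyte/macrophage-like and 11.3 CPM in neutrophil-like cells.

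Genes around the family were described from lists of the pathway. With edgeR and Benjamini-Hochberg adjustment 0 of their genes were called in any class. Mitochondrial ribosomal proteins, which translate the respiratory chain subunits encoded by mitochondrial DNA, had 68 of 77 tested genes negative in T-like cells (background 49.4%). The median was -0.24, and 26 were lower at an unadjusted p below 0.05 with edgeR (background 7.34%). Among T-like genes outside the cytosolic family with at least 100 CPM, 88.0% under 300 bases of coding length were negative. Of those from 300 to 600 bases 79.3% were negative. The list was not counted with 1 library left out. In monocyte/macrophage-like cells 64 of 77 were negative (background 49%), with a median of -0.20 and 3 lower (background 4.3%). In T-like cells Mrps24 was at 126 and 149 CPM in the controls against 106 and 91.9 in DKO (log2 -0.54) and Mrps14 at log2 -0.47. Mrpl33 was at 216 and 266 CPM in the controls against 163 and 140 in DKO monocyte/macrophage-like cells (log2 -0.70). In these cells both DKO libraries lay below both controls for Mrps24 (background 16.7% in T-like cells) and for Mrpl33 (background 18.7% in monocyte/macrophage-like cells).

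Translation factors and other mRNAs of the TOP type were mixed. In T-like cells 15 of 23 were negative (background 49.4%), with a median of -0.10. At an unadjusted p below 0.05 with edgeR 3 were lower (background 7.34%). The elongation factor subunit gene Eef1d was at log2 -0.48 (346 and 376 CPM in control, 285 and 258 in DKO). Pabpc1, the poly(A)-binding protein, was at 0.28 (1184 and 905 CPM in control, 1300 and 1367 in DKO) and the elongation factor gene Eef2 at 0.17. For Eef1d both DKO libraries lay below both controls (background 16.7%), and for Pabpc1 and Eef2 above them (background 32.4%). Initiation factors were divided, with 13 of 23 negative (background 49.4%, median -0.01) in T-like cells. They ran from Eif3i (-0.24) and Eif1 (-0.23) to Eif3a (0.16) and Eif2s2 (0.17).

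Ribosome biogenesis genes stood at the median of all genes in T-like cells, with 18 of 36 negative (background 49.4%, median -0.00). Nop10 was at -0.24, Npm1 at -0.07, Nop58 at 0.13 and Nop56 at 0.15. Of the same list 29 of 36 were negative in monocyte/macrophage-like cells (background 49%, median -0.13). The list on control of ribosomal protein synthesis had 17 of 22 positive and 5 negative in T-like cells (background 49.4% negative). Its median was 0.20, and 6 were higher at an unadjusted p below 0.05 with edgeR (background 7.42%). Larp1 was at 112 and 107 CPM in the controls against 139 and 146 in DKO (log2 0.31), and Atf4, the transcription factor of the integrated stress response, at 212 and 171 CPM in the controls against 247 and 274 in DKO (log2 0.37). For both genes the DKO libraries lay above the controls (background 32.4%).

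Coding length was examined because ribosomal proteins are short. Among the 80 members with at least 100 CPM, 56 had a coding length under 600 bases. Genes outside the family at the same minimum had medians that differed by coding length. In T-like cells the 83 genes under 300 bases had a median log2 of -0.27 with 88.0% negative, the 280 genes of 300 to 600 bases had -0.21, the 414 of 600 to 1200 had -0.01, the 380 of 1200 to 2400 had 0.09 and those from 2400 had 0.09. For monocyte/macrophage-like cells the same classes of length had -0.23, -0.16, -0.01, 0.06 and -0.02. In NK-like cells they had -0.21, -0.18, -0.01, 0.10 and 0.07. Of genes under 300 and of 300 to 600 bases, 92.9% and 76.9% were negative in monocyte/macrophage-like and 88.6% and 79.8% in NK-like cells. Both DKO libraries lay below both controls for 54.2% and 41.1% of them in T-like and 50.6% and 34.7% in monocyte/macrophage-like cells. In NK-like cells 53.2% and 34.5% did so, and in dendritic-like cells 54.3% and 35.8%. The members' counts, without that minimum, were 65 of 82, 27 of 83, 28 of 81 and 52 of 81, in that order. The medians of the members (T-like -0.28, monocyte/macrophage-like -0.16, NK-like -0.23, here over those 80) stood beside -0.27, -0.23 and -0.21 for other genes under 300 bases in the same cells.

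**Figure D5:**
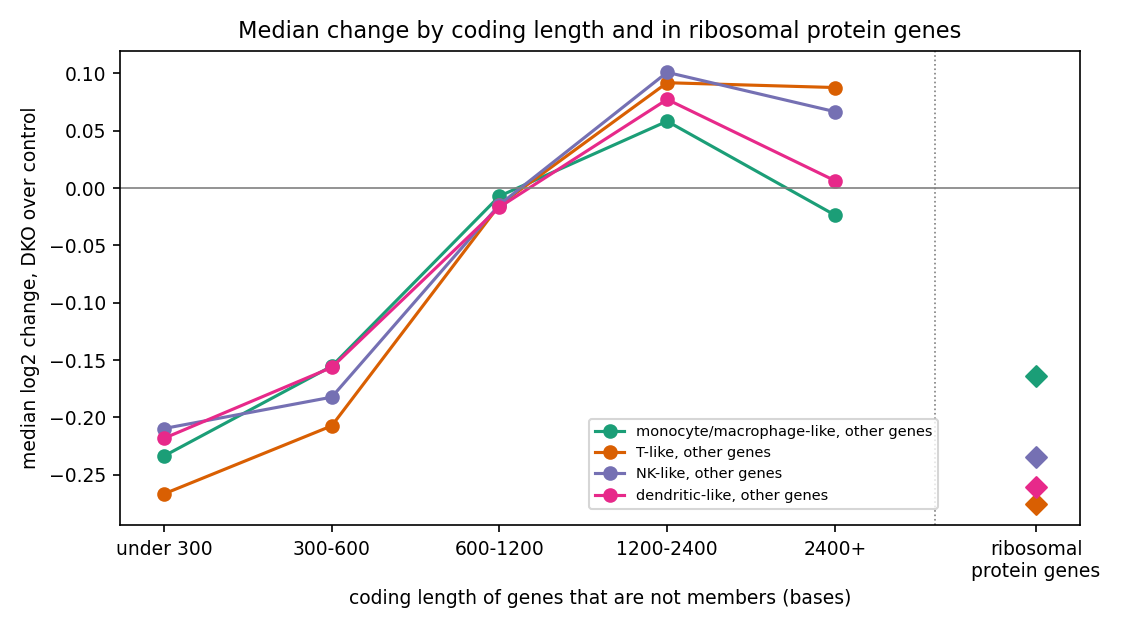
Median log2 change, DKO over control, of genes outside the family by coding length (horizontal axis, bases), with the median of the members as a diamond at the right, for 4 classes. Genes under 300 bases have medians between -0.27 and -0.21, and the members between -0.28 and -0.16.

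Within the family, as a description across genes that share the libraries, Spearman's rho of change and coding length was 0.01 over 80 members in T-like cells, 0.02 in monocyte/macrophage-like and -0.17 in NK-like cells. The 26 shortest members (up to 390 bases) had a median of -0.27 in T-like cells and the 26 longest (from 582 bases) -0.27. Other genes under 600 bases had a median of -0.22 in T-like cells, -0.11 without DKO 2 and -0.11 without control 2. The members there were at -0.28, -0.19 and -0.26. Monocyte/macrophage-like cells had -0.18, -0.05 and -0.09 for the short genes and -0.16, -0.03 and -0.08 for the members. The part of coding length in the members' values was not tested.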

How the data were processed

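Counts of UMIs per barcode and gene were deposited as matrices for 4 libraries of single-cell RNA (10x 3′ v3). Per the submitters' processing notes the tools were Cell Ranger, Seurat (3.1.0) and R (3.6.0), with GRCh38 and mm10 as builds; the header of the matrices names software version 3.1.0. Counting options were not given in the sources used here, so multi-mapping reads of processed pseudogenes, of which this family has many, may be lost or misplaced; 9 features labelled as pseudogenes were left out.

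The members and gene lists were chosen with earlier results of these data known. Cells needed 200 genes, 500 UMIs and at most 10% mitochondrial UMIs, and the highest Scrublet scores were removed (0.8% per 1000 barcodes). Cells were clustered with scanpy 1.11.5 (2000 variable genes without the members, 30 components, 20 neighbours, Leiden resolution 1) without integration of libraries or correction for free RNA, and clusters were named by marker lists; a cluster could be T-like only where at least 50% of its cells had Cd3e, and NK-like or innate lymphoid only below that. Cluster 5 was named dendritic-like by its marker score, with 0 dendritic markers among its top 10 genes. Cluster 0 (1299 cells, median 1142 UMIs) was kept among monocyte/macrophage-like cells, and cluster 23 (92 cells) stayed unnamed. Classes with at least 50 cells in each library were tested.

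Summed counts per library and class were fitted with edgeR 4.0.16 (TMM, filterByExpr, quasi-likelihood F test, R 4.3.3), adjusted over all genes of a class at 0.05, with DESeq2 1.42.0 as an alternative. The library, a pool of 2 tumours, was the replicate, so p-values measure the spread between pools. CPM are counts scaled to 1000000 UMIs of the class, without TMM. The 3′ counts give 1 tag per molecule and are not scaled by length. Tested on simulated data, the edgeR step recovered 70% of genes changed by log2 1 and 97% of those changed by log2 2 in T-like cells (11335 genes, 12 false calls), and 73% and 95% in monocyte/macrophage-like cells (13035 genes, 5 false calls). Changes as small as the members' medians (-0.28 in T-like and -0.17 in monocyte/macrophage-like cells) were not simulated. The simulated spread followed expression level alone, without a spread of its own for a gene or a library. Genes named in each of the 3 most numerous classes were the 6 lowest and 6 highest members by log2 change with at least 100 CPM; others were named by role, as paralogue pairs, or for the highest ratio between classes. Of pathway lists, the 2 lowest and 2 highest genes with at least 100 CPM were named. Some genes that these rules would name are not reported here. Rpl14, Rpl23a, Rpl39l, the members nearest to and farthest from the rest across clusters, and single clusters were named after their values were seen. Coordinates and coding lengths came from GENCODE vM21 on GRCm38.

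Same-numbered libraries did not deviate together (r between -0.297 and -0.0987 over genes), and the labels tie no number to a shared animal, litter or day.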

Additional observations from a re-analysis of the deposited data

How the results depend on the processing

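Counting error limits the paralogue percentages of neutrophil-like cells most, where the widest interval was ± 24.3 points (Rpl36al). The share difference kept its direction in 83 of 84 alternatives, and over all cells it was 0.0124 without DKO 2. When 1 library was left out, it lay between -4.20 and -2.56 points in T-like, -2.25 and -0.359 in monocyte/macrophage-like, -4.35 and -0.947 in NK-like, -3.53 and -0.940 in dendritic-like, -0.386 and -0.0215 in neutrophil-like cells and -1.69 and 0.0124 over all cells; the cause was not tested.

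The number of members called was 0 in each class with size factors from DESeq2, scaling from genes outside the family, total UMIs alone, at most 5% mitochondrial UMIs and doublets kept. DESeq2 called 423 of all genes over all cells, 138 in monocyte/macrophage-like and 36 in T-like cells, where edgeR called 0, 1 and 1. The replicate block called 0 members in each class (16 genes in T-like, 35 in NK-like, 13 in neutrophil-like, 8 in monocyte/macrophage-like and 0 in dendritic-like cells and over all cells). Members called were 7 in T-like cells with DESeq2 (0.318% of all genes). With no filter they were 4 in T-like, 1 in NK-like and 1 in neutrophil-like cells (3.03%, 0.764% and 0.369% of all genes). Leaving out 1 library gave 0 to 25 in T-like, 0 to 48 in dendritic-like, 0 to 1 in NK-like and 0 to 1 in neutrophil-like cells; the fits with the highest counts called 5% (without DKO 1), 6.65% (without DKO 1), 3.45% (without control 1) and 1.82% (without control 1) of all genes. A group left with 1 library is then assumed to vary like the other group. A crossed replicate block, chosen after seeing the data, paired each control with the DKO library of the other number. The labels give no ground for this pairing. The block called 22 members in T-like, 7 in NK-like, 1 in neutrophil-like and 0 in dendritic-like cells. Of all genes it called 9.96%, 2.69%, 2.8% and 0.552%, where the main fit called 0.00882% in T-like cells. Calls that rest on this pairing are not support for a change. The median log2 of members moved most without 1 library (from -0.31 to -0.03 in monocyte/macrophage-like, -0.41 to -0.07 in NK-like, -0.45 to -0.08 in dendritic-like cells and -0.28 to -0.02 over all cells). With total UMIs alone it was -0.08 over all cells and -0.15 in NK-like cells. Total UMIs alone moved the median of all genes by over 0.1 in neutrophil-like cells (0.21), where the members' median was then -0.03; with doublets kept it was -0.11.

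Named members near 0 changed sign, with 0 of them past the threshold. With total UMIs alone Rpl36al was at 0.0131 (T-like), Rpl31 was at 0.025 (T-like), Rpl5 was at 0.049 (T-like), Rplp2 was at 0.0532 (NK-like), Rpl4 was at 0.0591 (NK-like), Rpl31 was at 0.0664 (NK-like). With at most 5% mitochondrial UMIs Rpl36al was at -0.0057 (monocyte/macrophage-like), Rplp1 was at -0.0058 (monocyte/macrophage-like), Rpl23a was at -0.048 (T-like). At Leiden resolution 2 Rplp2 was at 0.0066 (NK-like), Rpl4 was at 0.0151 (NK-like), Rpl31 was at 0.0042 (NK-like). With doublets kept Rpl5 was at 0.0234 (T-like). When 1 library was left out, log2 changes ran for Rpl27 (T-like) from -0.0601 to 0.1054, Rpl31 (NK-like) from -0.1495 to 0.1258, Rpl36al (NK-like) from -0.0384 to 0.0616, Rpl36al (monocyte/macrophage-like) from -0.0718 to 0.1073, Rpl38 (monocyte/macrophage-like) from -0.0664 to 0.1277, Rpl4 (NK-like) from -0.1422 to 0.0999, Rpl5 (T-like) from -0.0767 to 0.0304, Rplp1 (monocyte/macrophage-like) from -0.0654 to 0.1071, Rplp2 (NK-like) from -0.1505 to 0.0919, Rps28 (T-like) from -0.0368 to 0.2153.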
